A study of Mus musculus with 5 samples.

Results

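The mTORC1 core and its inhibitors were followed as 10 genes chosen by symbol, out of 23337 genes listed in each library. They were Mtor, Rptor and Mlst8 for the core of the complex, Rheb for its activating GTPase, and Tsc1, Tsc2, Ddit4, Sesn1, Sesn2 and Sesn3 for its upstream inhibitors. All 10 were found, and all 10 passed the filter on low counts that left 11299 genes for testing. The 10 genes were chosen with earlier results of these data known. RNA was sequenced from CD8+ T cells sorted out of mouse B16-OVA tumors, a melanoma that makes ovalbumin, in 2 anti-PD-L1 and 3 Control IgG libraries. The cells came from OT-I donor mice on a C57BL/6J CD45.1 background, aged 6 to 12 weeks, whose transgenic T cell receptor recognises ovalbumin. In both groups they had been activated with antibodies to CD3 and CD28, grown in low-dose recombinant interleukin-2 and transferred into tumor-bearing mice. The anti-PD-L1 mice received 200 µg of clone 10F.9G2, an antibody that keeps PD-L1 from engaging the inhibitory receptor PD-1, on days 3 and 6 after transfer. The Control IgG mice received the same amount of rat IgG2b against KLH on the same days. Tumors were collected on day 8, or once their diameter was 1.2 cm. Each library pools several mice of 1 group, and the sort kept live cells positive for CD8 and for the donor marker CD45.1. For the tumor-bearing mice, the sources used here give no strain or age.

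mTORC1 is a protein kinase complex on the lysosome that drives protein, lipid and nucleotide synthesis when growth signals and amino acids are both present. The Rag GTPases bring it to the lysosome when amino acids are plentiful, and Rheb bound to GTP then switches it on. The TSC complex turns Rheb off, while REDD1 (the product of Ddit4) and the sestrins hold the pathway down under stress or amino acid shortage. In CD8+ T cells, mTORC1 activity accompanies effector differentiation, and its restraint accompanies quiescence and memory formation. The measurements here are of transcripts, and much of the control of mTORC1 acts on proteins.

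The libraries held 9985943 to 12830485 counts assigned to genes. Replicate 1 of each group stood apart from the other 3 libraries, with 11977 detected genes in the anti-PD-L1 and 11696 in the Control IgG library, against 13564 in anti-PD-L1 replicate 2 and 13673 and 13801 in the other Control IgG libraries. In the tested genes of greatest exon length, over 5835 bases, the median deviation of the log2 level from the gene's mean over the 5 libraries was -0.107 and 0.159 in the anti-PD-L1 libraries, against -0.197, 0.120 and 0.113 in the Control IgG libraries. Of the 10 genes described here, 6 were of that length, namely Mtor, Rptor, Rheb, Tsc1, Tsc2 and Sesn3. Markers of CD8 T cells summed to 8360 and 6980 CPM (counts scaled to a common library total) in anti-PD-L1 and to 6570 to 7350 CPM in Control IgG. Melanoma markers summed to 39.5 and 102 CPM in anti-PD-L1 and to 3.95, 295 and 93.9 CPM in Control IgG, and macrophage markers to 65.2 and 104 CPM against 67.6 to 162 CPM in Control IgG. Dendritic cell markers summed to 41.0 and 59.1 CPM in anti-PD-L1 and to 34.5 to 84.3 CPM in Control IgG, and the 4 endothelial markers to 28.5 and 47.9 CPM in anti-PD-L1 and to 39.2 to 57.6 CPM in Control IgG, all from Pecam1, since the other 3 (Cdh5, Kdr and Tek) had 0 counts in every library. NK cell markers summed to 8.98 and 31.3 CPM in anti-PD-L1 and to 23.9 to 32.6 CPM in Control IgG, and CD4 T cell markers to 11.5 and 20.0 CPM in anti-PD-L1 and to 12.9 to 24.7 CPM in Control IgG. B cell markers summed to 1.30 and 5.07 CPM in anti-PD-L1 and to 3.61 to 6.49 CPM in Control IgG, with Pax5 at 0 counts in every library. Neutrophil and fibroblast markers stayed at or under 1.69 CPM in each library, with S100a9, Retnlg, Col3a1 and Dcn at 0, and the red cell genes Hba-a1 and Hba-a2 were at 0. What part these differences between libraries have in the results below was not tested.

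Transcripts of Mtor, Rptor, Rheb, Tsc1 and Tsc2 had fold changes between 0.972 and 1.115 after anti-PD-L1, and Mlst8 1.33, each with an interval that reaches well to either side of 1. Ddit4 was the only one of the 10 genes whose groups did not overlap, with a fitted 1.60-fold higher level after anti-PD-L1 and an interval of 0.921-fold to 2.79-fold. Sesn2 and Sesn3 had the lowest fold changes, each with overlapping groups. None of the 10 passed an adjusted p of 0.05 by the quasi-likelihood test of edgeR with Benjamini-Hochberg adjustment, which called 0% of the 11299 tested genes. At an unadjusted p under 0.05 there were 0 of the 10 genes and 241 of all tested genes, 2.13%. DESeq2 and limma-voom also called 0 of the 10, and called 4 and 0 genes in all. The anti-PD-L1 libraries were both above all 3 controls for 7.74% of tested genes and both below them for 9.58%, so that 1 of 10 above and 0 of 10 below is near that background. The 10 genes had a median log2 fold change of -0.034, against -0.015 over all tested genes, with 4 above 0 and 6 below. All fold changes are anti-PD-L1 over Control IgG, and CPM of single genes include TMM factors, which correct for differences in library composition. In bulk RNA, fewer cells with a transcript and less transcript per cell cannot be told apart.

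**Figure D1:**
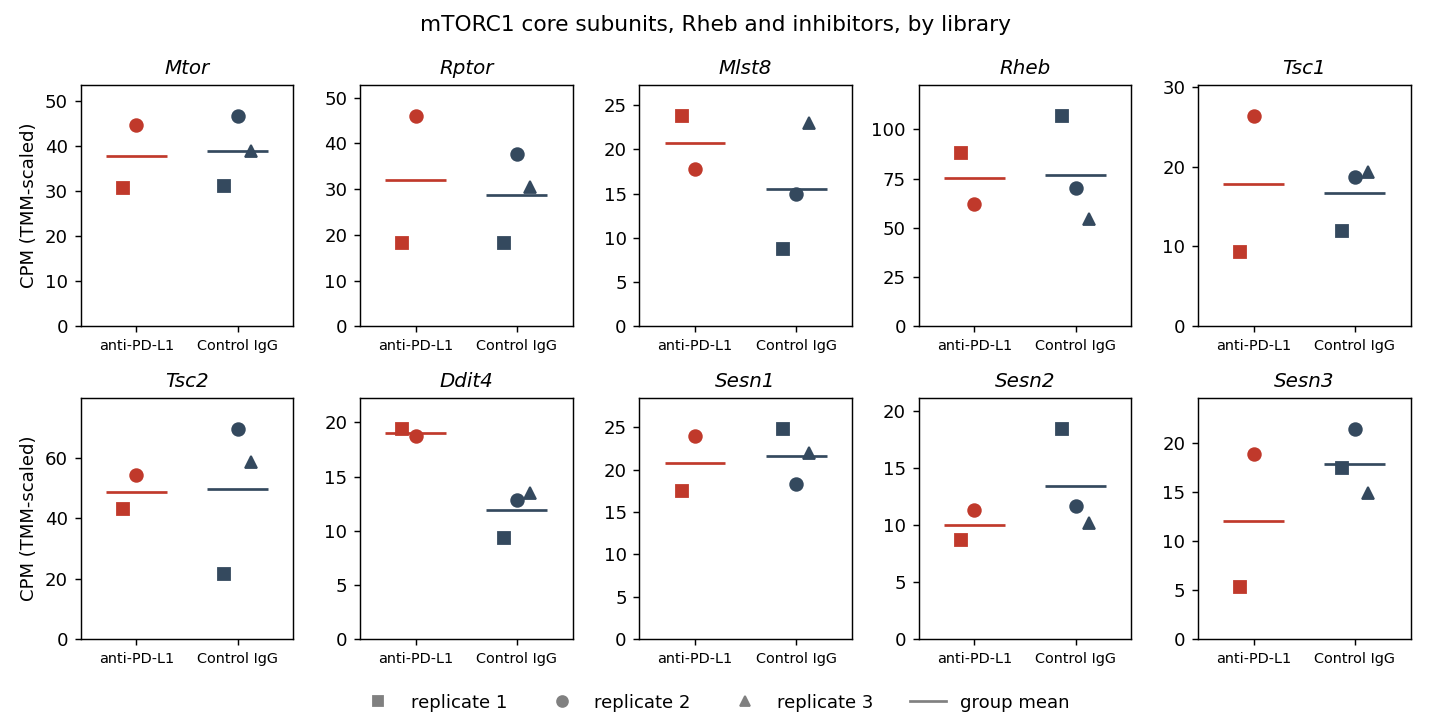
Level of each of the 10 genes in CPM (y axis, linear from 0, scaled by TMM factors) in the 2 anti-PD-L1 and 3 Control IgG libraries, with a marker shape for each replicate number and a line at the group mean. Ddit4 is the only panel in which the groups do not overlap, and in the Mtor, Rptor, Tsc1 and Tsc2 panels replicate 1 is the lowest library of both groups.

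Per kilobase of exon, Rheb and Ddit4 had the highest levels and Tsc1 and Sesn3 the lowest. The mean over 5 libraries was 9.88 CPM per kilobase for Rheb, with a range of 7.06 to 13.8, and 8.41 for Ddit4, with a range of 5.30 to 11.04. Sesn1, at 5.35, and Tsc2, at 5.13, followed. Next came Mlst8 at 3.98, Mtor at 3.81 and Sesn2 at 3.47 CPM per kilobase. The lowest means were 2.23 for Rptor, 1.45 for Tsc1 and 1.02 for Sesn3, whose annotated exons span 15269 bases. Every gene's range over the libraries overlapped that of the next gene in this order, and Rptor over Tsc1 was the only neighbouring pair in the same order in all 5 libraries. These levels use the union of all annotated exons, so a gene expressed mainly as a short isoform is placed too low.

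Mtor, the kinase, lies on chromosome 4 from 148448611 to 148557683 on the plus strand of GRCm38. It had 30.9 and 44.8 CPM in the anti-PD-L1 libraries, against 31.3, 46.7 and 38.9 CPM in the Control IgG libraries. The groups overlapped, and replicate 1 was the lowest library of each group. The log2 fold change was -0.041 ± 0.310 (SE), with a 95% interval of -0.75 to 0.67.

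Rptor encodes raptor, the subunit that binds substrates, and lies on chromosome 11 from 119602905 to 119899576 on the plus strand. It had 18.2 and 45.9 CPM in anti-PD-L1, against 18.2, 37.7 and 30.4 CPM in Control IgG. The libraries numbered 1 were again the lowest of each group and had almost the same level, with a log2 difference of -0.0053 between them. Between the libraries numbered 2 it was 0.28. Over all libraries the log2 fold change was 0.16 ± 0.46 (SE). It turned to -0.64 when anti-PD-L1 replicate 2 was left out and was 0.67 when anti-PD-L1 replicate 1 was, and it was -0.084 without Control IgG replicate 1. Exons of Rptor and of the antisense gene Rptoros overlap over 84 bases.

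Mlst8 encodes a small subunit shared by both mTOR complexes and lies on chromosome 17 from 24473551 to 24479078 on the minus strand. Its level was 23.7 and 17.8 CPM in anti-PD-L1, against 8.76, 14.9 and 23.0 CPM in Control IgG. Anti-PD-L1 replicate 1 was just above the highest control and replicate 2 lay within the controls, and Control IgG replicate 1 was the lowest of the 5. The log2 fold change was 0.41 ± 0.44 (SE), and it was -0.11 without both libraries numbered 1. Exons of Mlst8 overlap those of Bricd5 on the other strand over 997 bases, and the library chemistry does not mark strand, so reads of the pair cannot be told apart there.

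Rheb, the GTPase that activates the kinase, lies on chromosome 5 from 24802823 to 24842624 on the minus strand. It had 87.9 and 62.3 CPM in anti-PD-L1, against 107, 70.2 and 54.5 CPM in Control IgG. The groups overlapped. Here replicate 1 was the highest library of each group, the reverse of Mtor and Rptor. Its log2 fold change was -0.039 ± 0.338 (SE), with a 95% interval of -0.81 to 0.74.

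Tsc1 and Tsc2 encode hamartin and tuberin. Hamartin stabilises tuberin, whose GAP domain makes Rheb hydrolyse GTP. Tsc1, on chromosome 2 from 28641228 to 28691167 on the plus strand, had 9.36 and 26.3 CPM in anti-PD-L1, against 12.0, 18.7 and 19.3 CPM in Control IgG. The anti-PD-L1 libraries were the lowest and the highest of the 5, so that the log2 fold change of 0.10 ± 0.48 (SE) averages libraries on either side of the controls. Tsc2, on chromosome 17 from 24595816 to 24632630 on the minus strand, had 43.2 and 54.4 CPM in anti-PD-L1, against 21.5, 69.4 and 58.5 CPM in Control IgG. Both anti-PD-L1 libraries lay inside the range of the controls. Its log2 fold change was -0.029 ± 0.460 (SE). In the libraries numbered 1 the log2 difference was 1.00, and in those numbered 2 it was -0.35. The exons of Tsc2 and of Pkd1 on the other strand overlap over 693 bases.

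**Figure D2:**
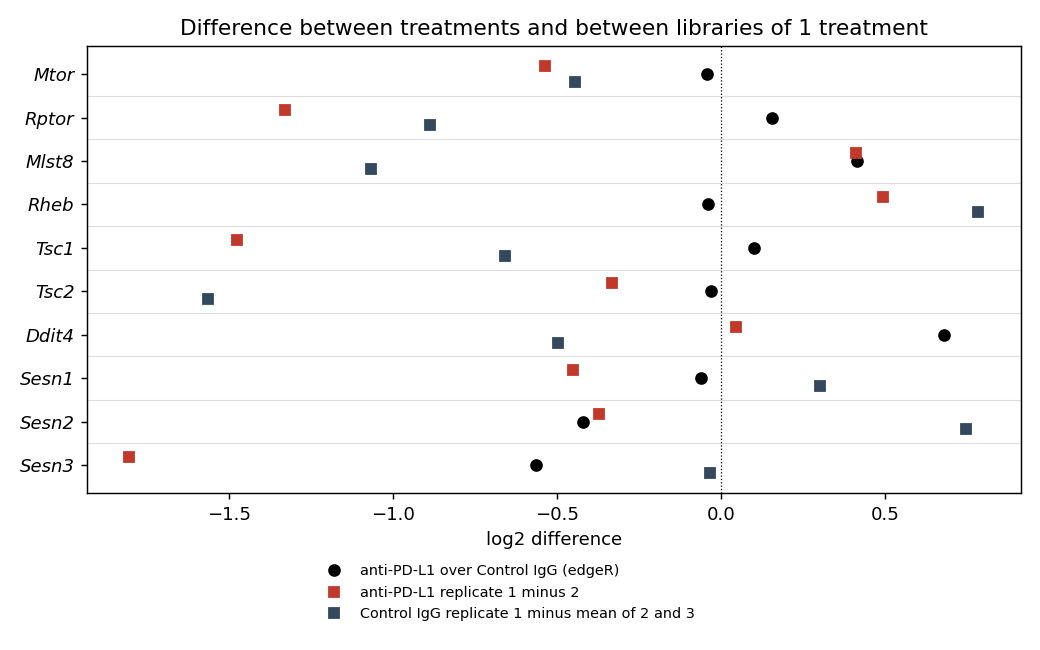
For each gene (rows), the edgeR log2 fold change of anti-PD-L1 over Control IgG (black circles), the log2 difference of anti-PD-L1 replicate 1 minus replicate 2 (red squares) and of Control IgG replicate 1 minus the mean of replicates 2 and 3 (blue-grey squares). Mtor, Rptor, Tsc1 and Tsc2 have both squares left of 0 and a circle near 0, Rheb has both squares right of 0, and Ddit4 has a circle farther from 0 than either square.

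The spread between libraries of 1 treatment was larger than the fold change for most of these genes. Within anti-PD-L1, the difference between replicates 1 and 2 exceeded the fold change in size for 7 of the 10 genes. Among the Control IgG libraries, the difference between replicate 1 and the mean of the other replicates did so for 8 of 10. For Rptor these differences were -1.33 and -0.89 on the log2 scale, and for Tsc1 -1.47 and -0.66. Only for Ddit4 was neither difference larger than the fold change, with 0.045 in anti-PD-L1 and -0.50 in Control IgG beside a log2 fold change of 0.68. The fold change within each replicate number had the same sign for 6 of 10 genes. The same shares over all tested genes were not computed. Differences between single libraries also vary more than differences of group means, so they tend to be larger even in genes without change. Whether these counts, or the place of Ddit4 among them, are unusual is therefore not known.

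Ddit4 encodes REDD1, a small protein induced by hypoxia, glucocorticoids, DNA damage and amino acid stress, which restrains mTORC1 through the TSC complex. The gene lies on chromosome 10 from 59949669 to 59951834 on the minus strand. It had 209 and 252 counts in the anti-PD-L1 libraries, against 104, 138 and 176 in the Control IgG libraries. Exact Poisson 95% intervals cover counting error only and take no account of PCR copies, which are counted as reads. They ran from 182 to 239 and from 222 to 285 in anti-PD-L1. In Control IgG they ran from 85 to 126, 116 to 163 and 151 to 204. The lower anti-PD-L1 interval thus overlapped the highest control interval before scaling for depth. As levels these were 19.4 and 18.8 CPM in anti-PD-L1, against 9.29, 12.9 and 13.5 CPM in Control IgG, with means of 19.1 ± 0.423 CPM (SD, n = 2) and 11.9 ± 2.27 CPM (SD, n = 3). The groups did not overlap, with or without TMM scaling, and the anti-PD-L1 libraries differed from each other by less than the controls did. The log2 fold change was 0.68 ± 0.35 (SE), and its 95% interval of -0.12 to 1.48 includes 0. In edgeR its unadjusted p was 0.0855 and its adjusted p over all tested genes was 0.9999. The log2 difference was 1.05 between the libraries numbered 1 and 0.54 between those numbered 2. It was above 0 in all 13 alternatives run, from 0.50 to 0.80, with adjusted p from 0.616 to 0.9999 and with the lowest value without both libraries numbered 1. Groups that do not overlap keep their sign when a library is left out, so this is no sign of stability.

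The upstream sequence of Ddit4 is shown because this gene alone had groups that did not overlap and because it is a known target of hypoxia-inducible factors. The upstream sequence of Sesn3, the gene with the lowest fold change, stands beside it. Both are the 250 bases before the RefSeq start on GRCm38.p6, for Ddit4 chr10:59951771-59952020 on the minus strand and for Sesn3 chr9:14276051-14276300 on the plus strand. The GENCODE models of both genes begin farther upstream than the RefSeq starts, at 59951834 for Ddit4 and at 14275067 for Sesn3. The whole Sesn3 window therefore lies inside the GENCODE gene, but only part of the Ddit4 window does. Capitals mark matches on either strand to ACGTG, a form of the core of the hypoxia response element, and to CCAAT. Other forms of that core, such as GCGTG, were neither searched nor marked.
Ddit4: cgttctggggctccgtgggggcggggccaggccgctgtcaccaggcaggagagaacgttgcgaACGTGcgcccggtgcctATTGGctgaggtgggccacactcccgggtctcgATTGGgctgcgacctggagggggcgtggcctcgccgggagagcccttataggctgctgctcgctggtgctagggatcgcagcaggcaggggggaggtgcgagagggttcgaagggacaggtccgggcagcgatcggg
Sesn3: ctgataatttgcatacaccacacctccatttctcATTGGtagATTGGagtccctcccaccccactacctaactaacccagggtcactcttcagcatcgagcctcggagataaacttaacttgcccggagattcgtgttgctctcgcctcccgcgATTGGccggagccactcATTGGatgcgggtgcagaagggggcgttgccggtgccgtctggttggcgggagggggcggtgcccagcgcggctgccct
Ddit4 had 1 match to ACGTG, which begins 187 bases before the start, and matches to the CCAAT box in reverse orientation 170 and 137 bases before it. Sesn3 had no match to ACGTG and 4 matches to the CCAAT box, all in reverse orientation. ACGTG was found upstream of 3 of the 10 genes, Ddit4, Rheb and Rptor, against 16.6% of all 32851 RefSeq windows of this length. In Rheb it stands within a palindrome, so that a match on each strand overlaps the other. The CCAAT box was found for 5 of 10, against 33.9%, and the forkhead factor motif TGTTTAC, also searched on both strands, for 0 of 10, against 3.17%. Sesn1 has 2 RefSeq start windows, and both were searched. A match is a description of these letters and not of a bound site.

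The sestrins relay amino acid shortage and oxidative stress, and act on mTORC1 through the GATOR complexes that control the Rag GTPases. Sesn1 and Sesn2 are known p53 targets, Sesn2 also answers to ATF4, and Sesn1 and Sesn3 are known FOXO targets. Sesn1, on chromosome 10 from 41809935 to 41908424 on the plus strand, had 17.5 and 24.0 CPM in anti-PD-L1, against 24.8, 18.3 and 21.9 CPM in Control IgG. The groups overlapped, and the log2 fold change was -0.061 ± 0.328 (SE), with a 95% interval of -0.81 to 0.69.

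Sesn2, which encodes a sensor of leucine, lies on chromosome 4 from 132492032 to 132510501 on the minus strand. It had 8.71 and 11.3 CPM in anti-PD-L1, against 18.4, 11.7 and 10.2 CPM in Control IgG. Control IgG replicate 1 stood above the other 4 libraries, which lay close together. For Sesn2 the log2 fold change was -0.42 ± 0.42 (SE), and it was -0.12 without Control IgG replicate 1 and 0.040 without both libraries numbered 1. The log2 difference was -1.07 between the libraries numbered 1 and -0.043 between those numbered 2.

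Sesn3, on chromosome 9 from 14275067 to 14333101 on the plus strand, had 57 and 253 counts in anti-PD-L1, against 195, 229 and 194 in Control IgG. As levels these were 5.28 and 18.9 CPM in anti-PD-L1, against 17.4, 21.4 and 14.9 CPM in Control IgG. Anti-PD-L1 replicate 1 was far below the other 4 libraries, and anti-PD-L1 replicate 2 lay within the controls. The Poisson 95% interval of 43.2 to 73.9 counts in anti-PD-L1 replicate 1 did not reach the interval of 168 to 223 counts of the lowest control. These intervals also take no account of PCR copies. A log2 fold change of -0.56 ± 0.53 (SE) resulted, which became 0.074 on leaving out anti-PD-L1 replicate 1 and -1.73 on leaving out replicate 2. Unlike Rptor and Tsc1, Sesn3 was not low in Control IgG replicate 1, where it differed from the mean of the other controls by -0.033 on the log2 scale. The lower mean after anti-PD-L1 therefore came from 1 library.

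**Figure D3:**
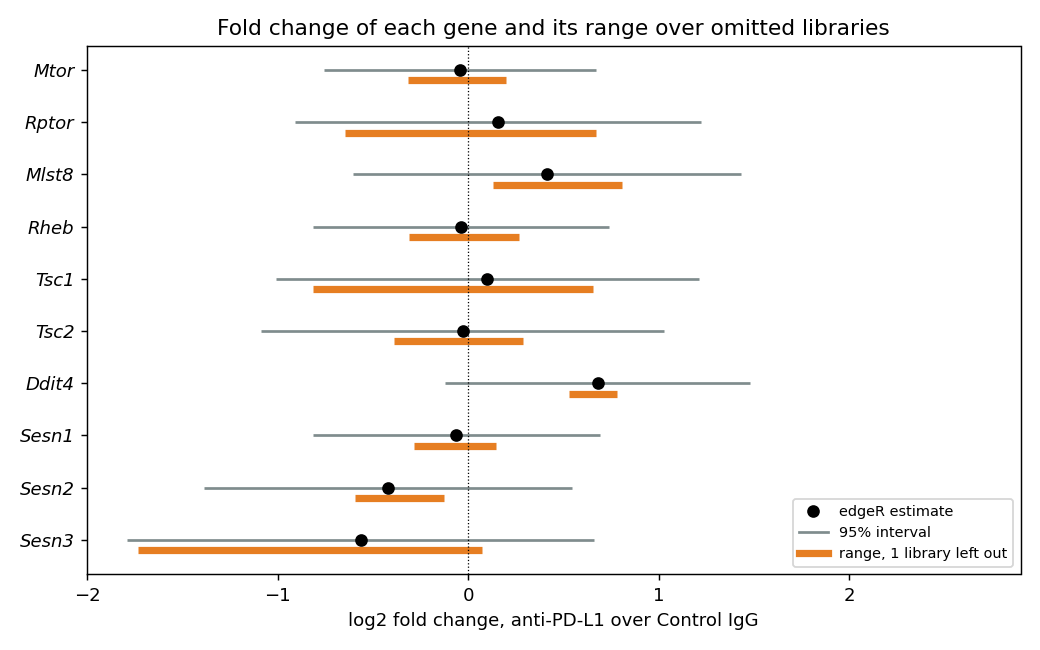
edgeR log2 fold change of anti-PD-L1 over Control IgG for each gene (points), its 95% interval (thin lines) and the range of the estimate when 1 library is left out at a time (thick lines). Every 95% interval includes 0. The leave-out range stays on 1 side of 0 for Mlst8, Ddit4 and Sesn2 and spans 0 for the other genes.

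The rest of the pathway was read from 12 lists of other genes, none of which holds any of the 10. No list had a gene past the threshold in edgeR in either direction. Beside each count stands the share of all tested genes with a fold change above 0, 48.1%, or below 0, 51.9%. Counts of genes whose groups do not overlap are read against the same counts over all tested genes, 7.74% higher than all 3 controls and 9.58% lower. The lists were small and are described by counts and medians only. They were also chosen with earlier results of these data known, which limits a comparison with the shares over all genes.

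Signals into the complex had no common direction. Of 23 tested genes of lysosomal amino acid sensing, which include the Rag GTPases and the GATOR complexes, 9 had a fold change above 0 and 14 below, with a median of -0.047, or -0.22 when anti-PD-L1 replicate 2 was omitted. Gatsl2, which encodes CASTOR2, a relative of the arginine sensor CASTOR1, had 8.43 and 5.29 CPM in anti-PD-L1, against 0.179, 2.89 and 3.53 CPM in Control IgG, a log2 fold change of 1.63 ± 0.98 (SE). Its groups did not overlap, at low levels, with 2 counts in Control IgG replicate 1. Of the 23 genes, 2 were above all controls, against 7.74% of all tested genes, and 2 were below them, against 9.58%. Lamtor2, a Ragulator subunit, had a log2 fold change of 0.30 ± 0.26 (SE). Of 14 genes of PI3K and AKT input 9 lay above 0, with a median of 0.12. The catalytic subunit gene Pik3cg had 115 and 43.1 CPM in anti-PD-L1, against 11.6, 38.9 and 53.0 CPM in Control IgG, and the adaptor gene Irs2 8.62 and 44.0 CPM against 7.60, 21.7 and 10.0 CPM. For both genes 1 anti-PD-L1 library was high and the other lay within the controls. The list median was -0.25 when anti-PD-L1 replicate 2 was omitted and -0.13 when Control IgG replicate 1 was. AMPK genes had 5 of 8 above 0 and a median of 0.10, or -0.069 when anti-PD-L1 replicate 1 was omitted. In this list Stk11, which encodes the kinase LKB1, had -0.22 ± 0.24 (SE) and its partner Strada 0.21 ± 0.29 (SE). The mTORC2 list had 3 of 4 below 0 and a median of -0.18. Its median was -0.0057, with 2 of 4 below 0, when Control IgG replicate 2 was omitted and -0.36 when anti-PD-L1 replicate 2 was. Its named genes were Prr5 at 1.06 ± 0.68 (SE) and Prr5l at -0.62 ± 0.71 (SE).

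Among 3 tested regulatory subunits and homologs, 2 had both anti-PD-L1 libraries below every control, as did 9.58% of all tested genes. The list median of -0.67 was -1.25 when anti-PD-L1 replicate 2 was omitted and -0.40, over 4 tested genes, when replicate 1 was. Rhebl1, a homolog of Rheb, had 6.02 and 7.002 CPM in anti-PD-L1, against 14.0, 9.06 and 10.3 CPM in Control IgG, a log2 fold change of -0.77 ± 0.43 (SE). Akt1s1, which encodes the mTORC1 inhibitor PRAS40, had 3.24 and 9.68 CPM in anti-PD-L1, against 10.1, 10.6 and 10.2 CPM in Control IgG. Anti-PD-L1 replicate 2 was just under the controls and replicate 1 far below them, and without TMM scaling the groups overlapped. Ddit4l, the paralog of Ddit4, had 0 counts in all 5 libraries.

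With all 5 libraries, genes downstream of mTORC1 had more fold changes below 0 than above. This lean changed with the libraries that were kept. Among 16 substrates and translation effectors 13 lay below 0, with a median of -0.185. Eef2k, a kinase that slows translation elongation and is inhibited downstream of mTORC1, had 6.21 and 6.03 CPM in anti-PD-L1, against 9.83, 8.96 and 10.3 CPM in Control IgG. Its groups did not overlap, with a log2 fold change of -0.66 ± 0.42 (SE). Of the 16 genes, 1 was below all controls, against 9.58% of all tested genes, and 0 were above them, against 7.74%. Eif4e, the cap-binding protein gene, had -0.32 ± 0.29 (SE), with its highest level, 337 CPM, in Control IgG replicate 1. Only 6 of the 16 genes lay below 0 when anti-PD-L1 replicate 1 was omitted, with a median of 0.036, and the median was -0.38 when replicate 2 was.

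Of 25 tested transcripts known to depend on mTORC1, 15 lay below 0, against 51.9% of all tested genes, and 10 above. Their median was -0.10. Both anti-PD-L1 libraries lay below every control for 4 of them, against 9.58% of all tested genes, and above for 1, against 7.74%. Asparagine synthetase (Asns) had 38.7 and 50.7 CPM in anti-PD-L1, against 90.0, 79.1 and 66.4 CPM in Control IgG, a log2 fold change of -0.81 ± 0.27 (SE). The mitochondrial serine hydroxymethyltransferase Shmt2 had 167 and 228 CPM in anti-PD-L1, against 368, 300.4 and 305 CPM in Control IgG, a log2 fold change of -0.72 ± 0.26 (SE). Both genes are also known ATF4 targets, and their groups did not overlap. Their unadjusted p in edgeR was 0.0177 and 0.0227, and neither passed over all genes. Omitting anti-PD-L1 replicate 2 gave a list median of 0.029, with 12 of 25 below 0. Omitting replicate 1 gave -0.18, with 20 below, and omitting Control IgG replicate 1 gave -0.00055, with 13 below.

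**Figure D4:**
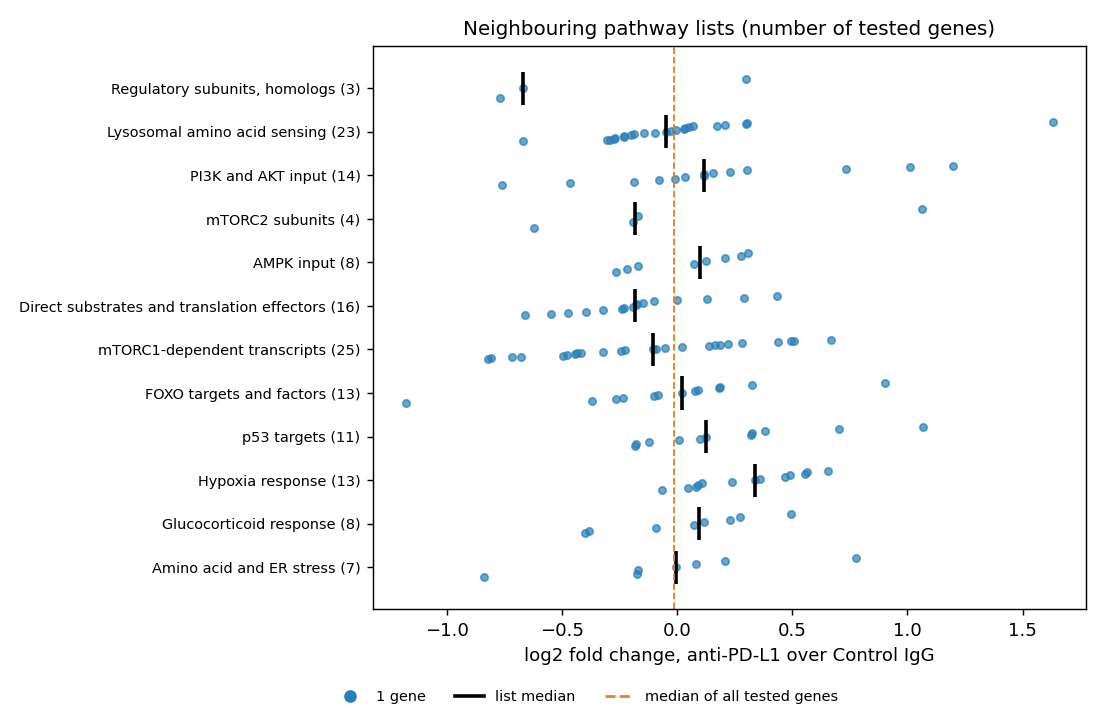
edgeR log2 fold changes of anti-PD-L1 over Control IgG for the tested genes of 12 neighbouring pathway lists (points, 1 per gene), with the list median (black bar) and the median of all tested genes (dashed line, -0.015). The medians range from -0.67 for the 3 regulatory subunits and homologs to 0.34 for hypoxia response genes.

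Genes that share a known inducer with Ddit4 or the sestrins were read in the same way. Hypoxia response genes had 12 of 13 above 0 and a median of 0.34, with Ddit4 not among them. The HIF1 outputs Slc2a1, Pgk1, Ldha, Hk2, Pfkp and Eno1 were not in this list either. They were placed among the transcripts known to depend on mTORC1, where 15 of 25 lay below 0. The 13 genes are therefore only part of the hypoxia response, and an inducer shared with Ddit4 was not tested. Ndrg1, a hypoxia-induced gene, had 52.9 and 53.0 CPM in anti-PD-L1, against 39.3, 40.1 and 35.5 CPM in Control IgG, and its groups did not overlap. Its log2 fold change was 0.47 ± 0.25 (SE). Of the 13 genes, 1 was above all controls, against 7.74% of all tested genes, and 0 were below them, against 9.58%. The mitophagy receptor gene Bnip3 had 136 and 70.4 CPM in anti-PD-L1, against 62.4, 82.8 and 63.7 CPM in Control IgG, with anti-PD-L1 replicate 2 within the controls. The median deviation of these genes from their mean over the libraries was 0.159 and 0.190 in anti-PD-L1, against -0.466, 0.105 and -0.262 in Control IgG. The list median was 0.20 when anti-PD-L1 replicate 1 was omitted, 0.21 for replicate 2 and 0.13 for Control IgG replicate 1. Omitting both libraries numbered 1 gave 0.048, with 9 of 13 above 0.

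Other p53 targets, the class to which Sesn1 and Sesn2 belong, had 8 of 11 above 0 and a median of 0.12. The cell cycle inhibitor gene Cdkn1a had 54.1 and 66.2 CPM in anti-PD-L1, against 20.6, 41.1 and 24.4 CPM in Control IgG, a log2 fold change of 1.07 ± 0.35 (SE). Ccng1 had 143 and 88.3 CPM in anti-PD-L1, against 77.9, 57.6 and 77.6 CPM in Control IgG, a log2 fold change of 0.70 ± 0.29 (SE). The groups did not overlap for either gene. Of the 11 genes, 3 were above all controls, against 7.74% of all tested genes, and 1 was below them, against 9.58%. The sestrins Sesn1 and Sesn2 had log2 fold changes of -0.061 and -0.42, and of 0.24 and 0.040 without both libraries numbered 1. A shared inducer was not tested. The unadjusted p in edgeR was 0.0148 for Cdkn1a and 0.0415 for Ccng1, and neither passed over all genes. The median of this list was -0.15 when anti-PD-L1 replicate 2 was omitted, 0.31 when replicate 1 was, 0.30 when Control IgG replicate 1 was, 0.24 when Control IgG replicate 2 was and 0.37 when both libraries numbered 1 were.

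FOXO targets and factors were evenly divided, with 7 of 13 above 0 and a median of 0.020. Cyclin G2 (Ccng2) had 36.3 and 24.4 CPM in anti-PD-L1, against 10.9, 22.03 and 15.9 CPM in Control IgG, a log2 fold change of 0.90 ± 0.39 (SE) with an unadjusted p of 0.0477 in edgeR. Its groups did not overlap. Of the 13 genes, 2 were above all controls, against 7.74% of all tested genes, and 1 was below them, against 9.58%. The list median was -0.18 when anti-PD-L1 replicate 2 was omitted, 0.21 when replicate 1 was, 0.16 when Control IgG replicate 1 was, -0.063 when Control IgG replicate 2 was and 0.058 when Control IgG replicate 3 was. Glucocorticoid response genes had 5 of 8 above 0 and a median of 0.094, or -0.80 on omitting anti-PD-L1 replicate 2 and 0.46 on omitting replicate 1, and 0.21, 0.022 and 0.062 on omitting Control IgG replicate 1, 2 or 3. Of these, Sgk1 had 0.49 ± 0.31 (SE) and Fkbp5 -0.40 ± 0.37 (SE). Amino acid and ER stress genes had 3 of 7 above 0 and a median of -0.0056. That median was -0.24, over 8 tested genes, when anti-PD-L1 replicate 2 was omitted and 0.35, with 6 of 7 above 0, when both libraries numbered 1 were. Its named genes were Atf3 at -0.84 ± 0.78 (SE) and Xbp1 at 0.21 ± 0.26 (SE).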

How the data were processed

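Smart-seq2 RNA sequencing measured poly(A) RNA of 2 anti-PD-L1 and 3 Control IgG libraries of pooled mice. The deposited values are raw read counts per gene symbol, and TopHat, HTSeq and mm10 are named, per the submitters' processing notes. The sources used here give no versions, annotation or strand setting. The 5 counter lines were left out of library totals, and reads without a feature made up 7.46% to 15.2%. PCR copies are counted as reads. The depth was 9985943 to 12830485 counts per library, where 3 counts equal 0.234 to 0.300 CPM.

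The test was the two-sided quasi-likelihood F-test of edgeR 4.0.16 (R 4.3.3) with TMM factors, after filterByExpr (count 10, total 15), with Benjamini-Hochberg adjustment over 11299 genes and a threshold of 0.05. DESeq2 1.42.0 and limma 3.58.1 were alternatives. The code was tested on simulated data. The standard error is the log2 fold change divided by the square root of F. Log2 differences between libraries used a prior count of 2. Where pools share mice or days is not given, so p-values measure the spread between pools. GENCODE vM21 gave coordinates and exon lengths on GRCm38, which is mm10. Upstream sequences come from RefSeq on GRCm38.p6.

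The members and lists were chosen with earlier results of these data known. Besides the 10 genes, the 2 list genes of smallest p are named for each list, as none passed, except for 1 gene that is not reported here. Of the list symbols, 4 were not matched in the files (Lamtor1, Lamtor4, Lamtor5 and Bmt2). Ddit4l was named after its values were seen. Alternatives were other normalizations, filters and tools, leaving out libraries, and a replicate block.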

Additional observations from a re-analysis of the deposited data

How the results depend on the processing

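No alternative called any of the 10 genes. In all genes, 4 were called higher by DESeq2, 5 by edgeR without a low-count filter and 1 by edgeR without both libraries numbered 1, and 0 lower in each. Ddit4 stayed above 0 in all 13 alternatives. Since its groups do not overlap, its sign was fixed in advance wherever libraries were left out. Leaving out 1 library at a time moved the log2 fold change from -0.32 to 0.20 for Mtor, -0.64 to 0.67 for Rptor, -0.31 to 0.27 for Rheb, -0.81 to 0.66 for Tsc1, -0.39 to 0.29 for Tsc2, -0.28 to 0.15 for Sesn1, -1.73 to 0.074 for Sesn3 and 0.53 to 0.78 for Ddit4. It moved from 0.13 to 0.81 for Mlst8 and from -0.59 to -0.12 for Sesn2, which also kept their sign in these fits. Without both libraries numbered 1 it was 0.056 for Mtor, -0.11 for Mlst8, 0.24 for Sesn1, 0.040 for Sesn2 and 0.048 for Sesn3. With limma-voom it was -0.0070 for Tsc1 and 0.13 for Tsc2. The cause of these changes of sign was not tested. With a replicate block on the libraries numbered 1 and 2, 0 genes were called and Tsc2 was at 0.32. Deviations of same-numbered libraries from their group means correlated across genes at 0.331 and 0.374. The deviations of the 2 anti-PD-L1 libraries mirror each other, so these 2 values are not independent. The numbers are not shown to pair the samples. With 1 anti-PD-L1 library left, its spread is assumed to equal that of the controls. The standard error of the median gene was 0.378 (log2) with 2 anti-PD-L1 and 3 Control IgG libraries, and 3 counts equalled 0.234 to 0.300 CPM.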
